A study of Mus musculus with 12 samples.

Results

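Replication-dependent histone genes are described here in mouse embryonic stem cells with and without Trim71 and with and without added Tnrc6a. They were the rows of a deposited gene table whose symbol begins with Hist1h to Hist4h, or with H2ac, H2bc, H3c or H4c followed by a digit, or is H1f1 to H1f6. These were 62 of the 20529 genes listed, and all 62 were among the 20486 genes that passed the filter on low counts. They comprised 6 genes for the linker histone H1, 17 for H2A, 17 for H2B, 11 for H3 and 11 for H4. In the mouse genome build GRCm38, 55 lay on chromosome 13, between bases 21715763 and 23934156. A further 5 lay on chromosome 3 between bases 96221119 and 96248509, and 2 on chromosome 11 between bases 58948920 and 58956830. Of the 62 rows, 2 are annotated as pseudogenes (H2ac14-ps and H2ac5-ps), and 56 have 1 annotated exon.

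Histones package DNA: H2A, H2B, H3 and H4 form the core of the nucleosome, and H1 binds the linker DNA. The replication-dependent genes supply these proteins while DNA is copied in S phase. Their transcription is driven by the coactivator NPAT, and most of their mRNAs end without a poly(A) tail in a stem-loop that is bound by SLBP. When replication stops, the mRNAs are degraded through UPF1 and the exonuclease ERI1 acting at that stem-loop. Replication-independent variants, such as the H3 variant encoded by H3f3a and H3f3b, are made from ordinary polyadenylated mRNAs. Trim71 is an RNA-binding protein of stem and germ cells that represses target mRNAs, and Tnrc6a (GW182) is the scaffold through which Argonaute proteins recruit mRNA decay enzymes.

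The title of the series is about RNA-silencing pathways that meet on GW182/Tnrc6, and the design crosses a Trim71 knockout with Tnrc6a. Each of 4 groups had 3 libraries from wells of 24-well dishes: Cas9 control, Cas9 Trim71-/-, Tnrc6a control and Tnrc6a Trim71-/- (Tnrc6a overexpression in the latter pair of groups). All groups share the 129S6/SvEvTac background, a GFP_5xT71BS reporter and, by the shared growth protocol, a stable FLAG-Cas9::T2A::Blasticidin transfection, and grew on gelatin with serum and LIF. RNA was purified with a Norgen single-cell kit and sequenced from stranded TruSeq total-RNA libraries. The labels do not say whether a group is 1 clone, nor what drives Tnrc6a. In 9 libraries, all but the Cas9 controls, a free-text line names other cells: HA-AVI-Tnrc6a for Cas9 Trim71-/-, the same with Ago2-/- for Tnrc6a control, and with Upf1-/- for Tnrc6a Trim71-/-. Groups were taken from the titles, which the RNA of Tnrc6a matched. The lines of both Tnrc6a groups also name Tnrc6a, so this match does not decide between title and line there. Mean Tnrc6a levels were 132.2 ± 1.31 and 144.5 ± 9.79 CPM (counts per 1000000 of the TMM-scaled library total) in Cas9 control and Cas9 Trim71-/- libraries (SD, n = 3), against 3317 ± 119.6 in Tnrc6a control and 3622 ± 125.5 in Tnrc6a Trim71-/- libraries. Upf1 RNA was present in the group whose line names Upf1-/-, at 229.8 ± 1.88 CPM. No deleted stretch is given for Upf1, so this level does not decide between the title and the line. Trim71 RNA was 306.1 ± 14.2 CPM in Cas9 control and 275.2 ± 14.2 CPM in Cas9 Trim71-/- libraries; the deleted stretch is not given in the labels, so this level checks nothing about the allele. The wells are not stated to be separate cultures in time, so p-values measure the spread between these wells, which may be technical.

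Library totals ranged from 20758151 to 31552915 counts, and the 62 histone genes took between 0.00709% and 0.0123% of them. In counts, the 62 genes summed to between 1472 and 3276 per library. The depth per gene was therefore small: 32 genes averaged under 1 CPM, 26 averaged between 1 and 3 CPM, and 4 averaged more (H1f2, H2bc4, H4c9 and H2ac25). Short RNAs that also lack a poly(A) tail were low as well: 6 of them, among them Rn7sk, Terc and Rmrp, summed to between 6.04 and 30.2 CPM per library although the labels name total RNA. The highest of these sums was in Tnrc6a control replicate 2. Whether the libraries held polyadenylated RNA for the most part was not tested.

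The stem-loop was searched in the annotated GENCODE M21 transcripts as a pattern of 16 bases, and 43 of the 62 genes (69.4%) held it, against 64 of 21901 protein-coding genes (0.292%). Its commonest form, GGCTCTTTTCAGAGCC, stood in 26 genes, and 6 genes each held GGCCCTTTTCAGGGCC or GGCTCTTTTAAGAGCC. The stem-loops of 8 histone genes that differed between the groups are shown, since they are the feature by which the family is processed. Each run is 30 bases of the transcribed strand from GENCODE M21 on GRCm38, with the stem-loop in capitals.
H1f2, chr13:23739507-23739536 (+): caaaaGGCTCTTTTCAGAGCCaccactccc
H2ac25, chr11:58955167-58955196 (+): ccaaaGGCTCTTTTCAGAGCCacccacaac
H2bc27, chr11:58949344-58949373 (+): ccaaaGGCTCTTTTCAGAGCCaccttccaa
H2bc9, chr13:23542919-23542948 (-): ccaaaGGCTCTTTTCAGAGCCactcaagac
H2bc22, chr13:21787918-21787947 (+): acaaaGGCTCTTTTCAGAGCCacccacatt
H3c14, chr3:96247322-96247351 (+): acaaaGGCTCTTTTCAGAGCCaccacagct
H4c9, chr13:22040957-22040986 (-): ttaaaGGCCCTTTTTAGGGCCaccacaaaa
H4c1, chr13:23760791-23760820 (-): ccaaaGGCCCTTCTCAGGGCCgcccacatt
The first 6 share the same 16 bases, and H4c9 and H4c1 carry forms found in no other histone gene of the set. The annotated transcript did not always end at the stem-loop. It ran on for at least 200 bases in 16 genes, ended within 200 bases in 27, and held no such pattern in 19. It continued for 1643 bases in H2ac25, 1214 in H2bc9, 1167 in H3c14, 840 in H1f2 and 330 in H4c9. H2bc4, the second most abundant member by CPM, had no match in its annotated transcript. Reads past the stem-loop cannot be told apart from others in a count per gene.

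Levels were uneven within every class. H1f2 alone held 82.5% of the summed H1 CPM, H4c9 49.4% of those of H4 and H2bc4 45.7% of those of H2B. H2A and H3 were spread over more copies, with H2ac25 at 13.3% of H2A and H3c14 at 15.6% of H3. On the deposited RPKM, which scales reads by annotated gene length and library size, the highest means over the 12 libraries were 11.05 for H2bc4, 9.63 for H1f2 and 8.43 for H4c9. The annotated lengths ran from 312 bases in H4c12 to 7425 in H1f3, so the order by RPKM depends on them. In the same unit, the next H1 genes were H1f1 at 0.933 and H1f4 at 0.448. H1f3, the second H1 gene by CPM, was at 0.137 RPKM. The H2A class was led by H2ac19 at 5.34, H2ac12 at 4.16 and H2ac13 at 4.10 RPKM. After H2bc4 came H2bc1 at 2.16 and H2bc8 at 2.06 RPKM in the H2B class. The H3 genes with the highest RPKM were H3c8 at 1.96, H3c10 at 1.46 and H3c1 at 1.28, and H4c9 was followed by H4c12 at 2.65 and H4c2 at 1.46. Many copies are near-identical: 31 of the 62 genes shared at least 50% of their 50-base windows with another histone gene of the set, among them 14 of 17 H2A genes and none of the 6 H1 genes. How the authors assigned reads that match several copies is not given in the sources used here, so single copies of H2A are uncertain and sums per class are given beside them.

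Summed over the 62 genes, the level was higher in Trim71-/- than in control cells with either background. It was 79.7, 74.5 and 75.4 CPM in the 3 Cas9 control libraries and 109.9, 108.0 and 119.1 CPM in the Cas9 Trim71-/- libraries. With Tnrc6a, it was 91.0, 91.9 and 81.9 CPM in control and 117.4, 112.3 and 110.6 CPM in Trim71-/- libraries. Trim71-/- libraries did not overlap control libraries in either background, and the ratios of means were 1.47 and 1.28. Tnrc6a control libraries were above Cas9 control libraries without overlap, at a ratio of 1.15, while the Tnrc6a Trim71-/- and Cas9 Trim71-/- libraries overlapped at a ratio of 1.01. In bulk RNA, a different number of cells in S phase and a different amount of histone RNA per cell cannot be told apart. On deposited RPKM the same sums gave ratios of 1.34 and 1.15 for Trim71-/-, and 1.04 (overlapping) and 0.893 for Tnrc6a, so the direction of the last comparison depended on the unit.

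**Figure D1:**
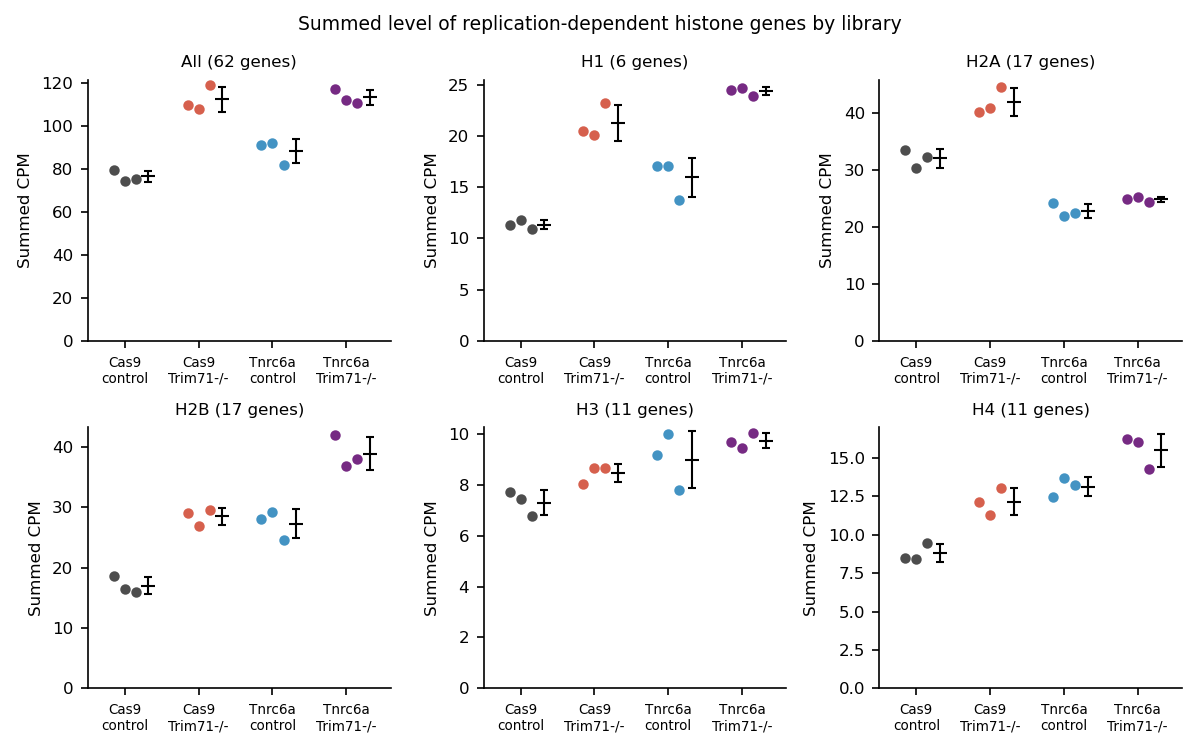
Summed level of all 62 histone genes and of each class in every library, in CPM on linear axes that start at 0; points are libraries and the bars beside them mean ± SD (n = 3). H1, H2B and H4 are lowest in Cas9 control and highest in Tnrc6a Trim71-/- libraries, while H2A is lower in both Tnrc6a groups than in the Cas9 groups.

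The classes moved apart. The linker histone class H1 summed to 11.3 ± 0.446 CPM in Cas9 control, 21.3 ± 1.72 in Cas9 Trim71-/-, 15.95 ± 1.92 in Tnrc6a control and 24.3 ± 0.408 in Tnrc6a Trim71-/- libraries (SD, n = 3). H2B summed to 17.0 ± 1.41, 28.5 ± 1.36, 27.3 ± 2.43 and 38.9 ± 2.68 CPM in the same order. H4 summed to 8.80 ± 0.576, 12.2 ± 0.878, 13.1 ± 0.628 and 15.5 ± 1.07 CPM. These 3 classes were higher in Trim71-/- cells and higher with Tnrc6a, and in none of the 4 comparisons did their groups overlap. H2A summed to 32.1 ± 1.63 CPM in Cas9 control and 41.9 ± 2.42 in Cas9 Trim71-/- libraries, but to 22.9 ± 1.20 in Tnrc6a control and 24.9 ± 0.396 in Tnrc6a Trim71-/- libraries. H2A was thus lower with Tnrc6a, at ratios of 0.713 in control and 0.593 in Trim71-/- cells, also without overlap. H3 moved least, from 7.31 ± 0.492 through 8.47 ± 0.362 and 8.99 ± 1.11 to 9.74 ± 0.297 CPM, and its groups overlapped for Trim71-/- with Tnrc6a. On RPKM the H3 groups overlapped in all 4 comparisons, with a ratio of 0.948 for Trim71-/- with Tnrc6a, where the H2A groups overlapped at 0.996. H1, H2B and H4 were higher and H2A lower with Tnrc6a under each scaling tried. Scaling to library totals alone moved the median of all genes by 0.14 and 0.13 (log2) in the Tnrc6a comparisons, and the H2A ratios were then 0.801 and 0.659.

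The effect of the Trim71 knockout was first compared in Cas9 cells. By edgeR's quasi-likelihood test with Benjamini-Hochberg adjustment over all 20486 genes, 9 of the 62 histone genes were higher at an adjusted p under 0.05, where 17.1% of all genes were. None was lower, where 19.1% of all genes were, and 12 members had an unadjusted p under 0.05 (36.1% of all genes were called in either direction). Among the 10645 other genes with a mean CPM in the members' range 26.6% were called and 11.1% were higher. Among the 6615 others under 3 CPM 18.9% were called and 7.51% were higher. The share of members called, all of them higher, was 14.5%. The members' log2 fold changes were above 0 in 55 of 62 genes, with a median of 0.33 against -0.01 over all genes. The genes that rose came from every class: H1f2, H2ac25, H2bc4, H2bc9, H2bc22, H2bc27, H3c14, H4c1 and H4c9.

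H1f2, the linker histone gene with the most RNA in the set, was at 8.83, 8.85 and 8.96 CPM in Cas9 control and at 17.6, 17.1 and 19.6 CPM in Cas9 Trim71-/- libraries. The 2 groups lay well apart, and H1f2 rose 2.04-fold (log2 1.03, SE 0.0903, edgeR adjusted p = 8.97e-13). H2bc4, the leading H2B gene, was at 7.41, 6.22 and 6.03 CPM in control and 13.05, 12.6 and 11.99 CPM in knockout libraries. It rose 1.91-fold (log2 0.93, SE 0.102, edgeR adjusted p = 3.43e-10). H4c9, the leading H4 gene, was at 3.84, 4.15 and 3.94 CPM against 5.77, 5.50 and 6.87 CPM. Its groups did not overlap either, and it rose 1.52-fold (log2 0.60, SE 0.138, edgeR adjusted p = 5.06e-04).

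The genes outside the chromosome 13 cluster included the largest rises. H2ac25, an H2A gene on chromosome 11, was at 2.27, 1.97 and 1.78 CPM in Cas9 control and 6.31, 5.67 and 5.90 CPM in Cas9 Trim71-/- libraries. Every knockout library was above every control library, a 2.97-fold rise (log2 1.57, SE 0.161, edgeR adjusted p = 6.26e-11). Its neighbour H2bc27, an H2B gene, was at 0.768, 0.557 and 0.696 CPM against 1.91, 2.03 and 1.71 CPM. It rose 2.76-fold (log2 1.46, SE 0.279, edgeR adjusted p = 4.04e-05). H3c14, an H3 gene on chromosome 3, was at 0.615, 0.607 and 0.464 CPM against 1.01, 1.20 and 1.34 CPM, a 2.08-fold rise (log2 1.06, SE 0.303, edgeR adjusted p = 0.00491). The other 4 members on chromosome 3, H2ac18, H2ac19, H2bc21 and H3c15, did not pass the test. Exons of H2ac25 overlap those of Trim17 on the same strand, and Trim17 moved alike, from 1.93 CPM in Cas9 control to 4.64 in Cas9 Trim71-/- libraries. Exons of H3c14 overlap those of Gm20634 on the same strand, and all 1776 of the 50-base windows of H3c14 also occur in other genes. Gm20634 was at 1.91 and 2.76 CPM in those groups. It rose in all 4 comparisons, by log2 0.52 and 0.50 for Trim71-/- and 0.50 and 0.49 for Tnrc6a (edgeR, adjusted p under 0.05). The share of the reads that came from the overlapping genes was not tested.

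**Figure D2:**
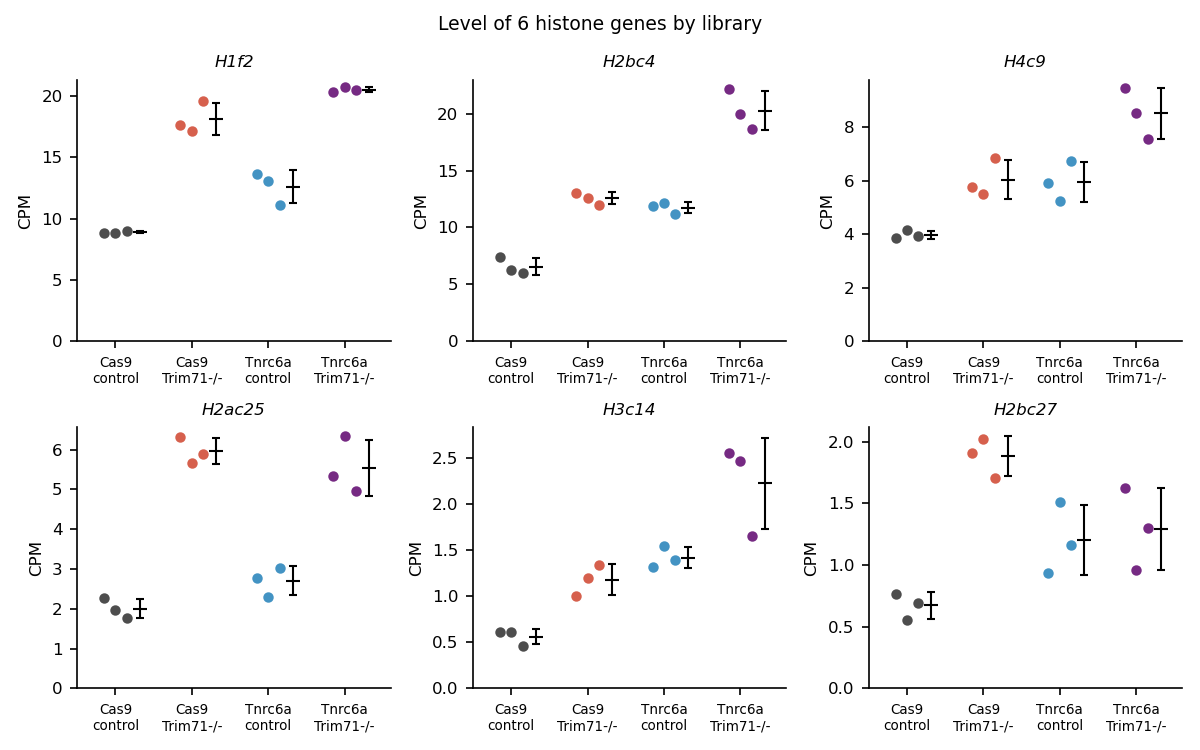
Level of 6 histone genes in every library, in CPM on linear axes from 0; points are libraries and the bars beside them mean ± SD (n = 3). In H1f2, H2bc4, H4c9, H2ac25 and H3c14 all Trim71-/- libraries lie above the control libraries of the same background.

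The rest of the rises were in thinly counted genes of chromosome 13. H2bc9 was at 0.730, 0.911 and 0.850 CPM in Cas9 control and 1.51, 1.82 and 1.52 CPM in Cas9 Trim71-/- libraries, 1.95-fold higher (log2 0.96, SE 0.260, edgeR adjusted p = 0.00279). H2bc22 (log2 0.92, SE 0.336, edgeR adjusted p = 0.0280) and H4c1 (log2 1.18, SE 0.414, edgeR adjusted p = 0.0221) were counted 9 to 35 and 6 to 27 times per library. These 2 missed the threshold in some of the alternative fits, while the other 7 kept an adjusted p under 0.05 in each of them. Of the 16 genes whose annotated transcript runs past the stem-loop 5 rose, against 3 of the 27 that end near it and 1 of the 19 without a match. As shares these were 31.25%, 11.1% and 5.26%, beside 17.1% of all genes and 11.1% of the others in the members' CPM range. The 3 sets had median levels of 1.05, 0.758 and 1.08 CPM. The median log2 fold changes of these 3 sets were 0.46, 0.32 and 0.32.

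The knockout was next compared in cells with added Tnrc6a. By edgeR's test 6 members were higher in Tnrc6a Trim71-/- than in Tnrc6a control libraries, where 20.0% of all genes were, and 1 was lower, where 19.0% were (39.1% in either direction). The median over the members was 0.09 against 0.00 over all genes, and 37 of the 62 were above 0. The genes that rose were H1f2, H2ac25, H2bc4, H2bc9, H3c14 and H4c9, all 6 of which had also risen with Cas9. H1f2 was at 13.7, 13.05 and 11.1 CPM in control and at 20.4, 20.7 and 20.5 CPM in knockout libraries, 1.63-fold higher (log2 0.70, SE 0.0821, edgeR adjusted p = 1.56e-09). H2bc4 was at 11.9, 12.2 and 11.2 CPM against 22.1, 20.0 and 18.7 CPM, 1.73-fold higher (log2 0.79, SE 0.0863, edgeR adjusted p = 3.05e-10). Neither gene's groups overlapped.

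H2ac25 was at 2.78, 2.30 and 3.02 CPM in Tnrc6a control and 5.34, 6.33 and 4.97 CPM in Tnrc6a Trim71-/- libraries. It rose 2.05-fold (log2 1.04, SE 0.148, edgeR adjusted p = 1.73e-07), again without overlap. H4c9 was at 5.91, 5.25 and 6.73 CPM against 9.49, 8.54 and 7.57 CPM, 1.43-fold higher (log2 0.52, SE 0.120, edgeR adjusted p = 5.19e-04). H3c14 (log2 0.65, SE 0.226, edgeR adjusted p = 0.0185) and H2bc9 (log2 0.76, SE 0.224, edgeR adjusted p = 0.00576) rose as well. The gene that fell was H3c1, at 0.731, 0.971 and 0.763 CPM against 0.505, 0.331 and 0.434 CPM (log2 -0.94, SE 0.370, edgeR adjusted p = 0.0389). H1f2, H2ac25, H2bc4 and H4c9 kept an adjusted p under 0.05 in each alternative fit, and H3c14, H2bc9 and H3c1 did not.

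**Figure D3:**
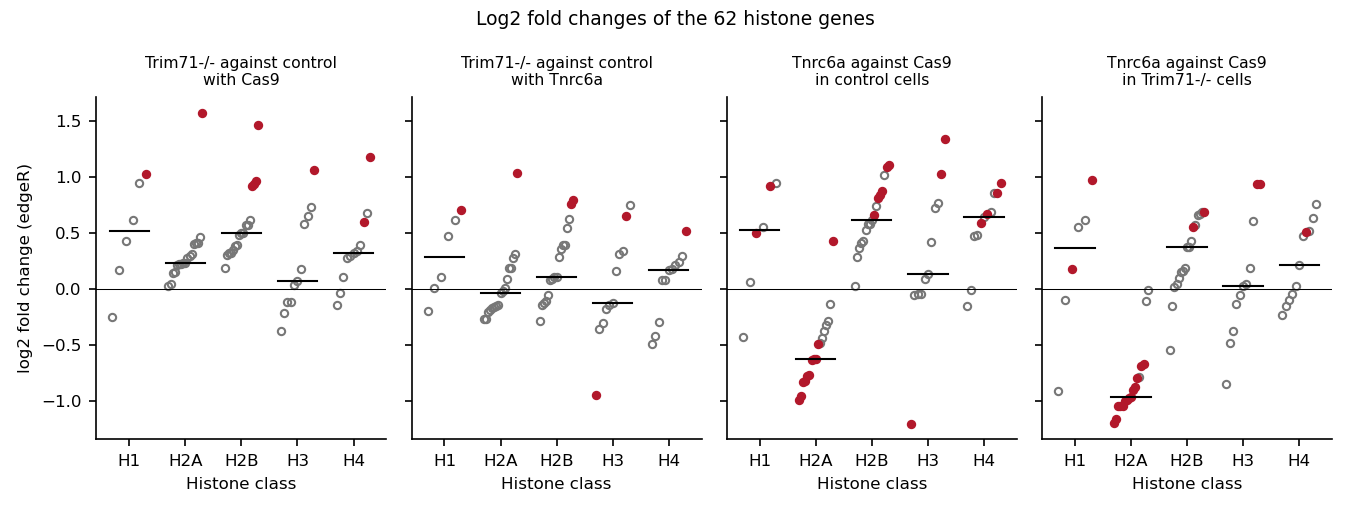
Log2 fold changes (edgeR) of the 62 genes by histone class in the 4 comparisons; each point is a gene, filled where the adjusted p was under 0.05, short bars are class medians and the thin line marks no change. With Tnrc6a the H2A genes lie below 0, except H2ac25 in control cells, and the H2B genes mostly above it.

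The difference between the knockout's effects in the 2 backgrounds was tested as an interaction. It passed for 1 of 62 members, which was lower (2.25% of all genes were lower, 4.68% higher and 6.93% in either direction), and 51 of the 62 interaction terms were below 0, with a median of -0.25 against 0.02 over all genes. The gene was H2bc27. With Tnrc6a it was at 0.939, 1.51 and 1.16 CPM in control and 1.62, 0.957 and 1.301 CPM in knockout libraries, which overlap. The interaction of H2bc27 was log2 -1.35 (SE 0.382, edgeR adjusted p = 0.0212), and it missed the threshold without Cas9 control replicate 2, Tnrc6a control replicate 2 or Tnrc6a Trim71-/- replicate 2. For the leading genes the interaction did not pass: H1f2 had log2 -0.32 (SE 0.123, edgeR adjusted p = 0.115) and H2ac25 log2 -0.53 (SE 0.222, edgeR adjusted p = 0.156). For H2bc4 the term was log2 -0.15 (SE 0.134) and for H4c9 log2 -0.09 (SE 0.183).

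Adding Tnrc6a was then compared with Cas9 in control cells. This comparison shares the Cas9 control and Tnrc6a control libraries with those above, so the lists are not independent. By edgeR's test 15 members were higher, where 30.4% of all genes were, and 11 were lower, where 33.1% were (63.5% in either direction). Among the 10645 other genes in the members' CPM range 52.2% were called, with 31.7% higher and 20.6% lower. Among the 6615 others under 3 CPM 30.7% were higher and 11.6% lower. The 2 directions fell to different classes. Of 17 H2B genes 6 rose and none fell, of 11 H4 genes 4 rose and none fell, and of 6 H1 genes 2 rose and none fell. These shares of rises, 35.3%, 36.4% and 33.3%, were near the 30.4% of all genes. Of 17 H2A genes 10 fell and 1 rose. Of 11 H3 genes 2 rose and 1 fell. The class medians were log2 0.62 for H2B, 0.64 for H4, 0.53 for H1, 0.14 for H3 and -0.62 for H2A. The median was -0.02 over all genes and 0.24 over the others under 3 CPM.

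Among the rises, H3c14 went from a mean of 0.562 ± 0.0850 CPM in Cas9 control to 1.42 ± 0.114 in Tnrc6a control libraries (SD, n = 3). The 6 libraries did not overlap, and the change was 2.53-fold (log2 1.34, SE 0.289, edgeR adjusted p = 9.36e-05). H2bc4 rose 1.78-fold (log2 0.84, SE 0.101, edgeR adjusted p = 1.54e-09), H4c9 1.51-fold (log2 0.59, SE 0.136, edgeR adjusted p = 2.13e-04) and H1f2 1.42-fold (log2 0.50, SE 0.0926, edgeR adjusted p = 8.24e-06), from the library values given above. H3c4 was at 0.499, 0.810 and 0.502 CPM with Cas9 and 0.974, 1.62 and 1.03 CPM with Tnrc6a, 2.03-fold higher (log2 1.02, SE 0.319, edgeR adjusted p = 0.00504). H2bc27 (log2 0.81), H2bc23 (log2 0.66) and H2ac25 (log2 0.43) also passed, with edgeR adjusted p of 0.0144, 0.0301 and 0.0318. In H2bc23 the libraries of the 2 groups overlapped. The calls of H3c4, H2bc27, H2bc23 and H2ac25 were lost in 1, 2, 4 and 5 of 15 alternative fits, and the adjusted p of H2ac25 reached 0.138 in these fits (edgeR, limma-voom and DESeq2).

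Among the falls, H2ac13 was at 1.81, 2.13 and 2.01 CPM in Cas9 control and 0.939, 1.15 and 0.896 CPM in Tnrc6a control libraries. All Tnrc6a libraries were below all Cas9 libraries, and the level was 1.98-fold lower (log2 -0.99, SE 0.236, edgeR adjusted p = 3.46e-04). H2ac8 was at 3.07, 3.19 and 3.44 CPM against 1.98, 1.83 and 1.69 CPM, 1.76-fold lower (log2 -0.82, SE 0.182, edgeR adjusted p = 1.40e-04). H2ac22 (log2 -0.83), H2ac11 (log2 -0.78) and the pseudogene H2ac5-ps (log2 -0.76) fell too. The libraries of H2ac5-ps overlapped between the groups, and its call was lost in 5 of 15 alternative fits, DESeq2 among them. Of the 26 calls in this comparison, 10 were kept in each alternative fit. The gene outside H2A that fell was H3c7, with log2 -1.20 (SE 0.360, edgeR adjusted p = 0.00365), from 0.653, 1.26 and 1.31 CPM to 0.591, 0.539 and 0.265 CPM.

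In Trim71-/- cells, Tnrc6a against Cas9 gave 7 members that were higher, where 32.0% of all genes were, and 14 that were lower, where 30.9% were (62.9% in either direction). All 14 that fell were H2A genes, out of 17. H2ac13 was at 2.41, 2.48 and 2.35 CPM in Cas9 Trim71-/- and 1.08, 1.29 and 0.788 CPM in Tnrc6a Trim71-/- libraries, 2.28-fold lower (log2 -1.19, SE 0.228, edgeR adjusted p = 1.71e-05). H2ac8 was at 3.32, 2.85 and 3.73 CPM against 1.41, 1.62 and 1.77 CPM, 2.06-fold lower (log2 -1.04, SE 0.186, edgeR adjusted p = 5.21e-06). The groups of both genes lay apart. H2ac4, H2ac22 and H2ac12 followed with log2 values of -1.16, -1.05 and -1.04. H2ac19, the H2A gene with the highest RPKM, was at 3.29, 4.09 and 3.64 CPM against 2.16, 1.66 and 2.52 CPM (log2 -0.79, SE 0.179, edgeR adjusted p = 1.70e-04). All 479 windows of H2ac19 also occur in H2ac18, which did not pass here (log2 -0.004, SE 0.247, edgeR adjusted p = 0.989). How reads were split between these copies was not tested, so the fall of H2ac19 as a single copy is uncertain. The H2A median was log2 -0.96, against 0.02 over all genes and 0.30 over the 6615 others under 3 CPM.

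The genes that rose in that comparison were H2bc4, H3c14, H4c9, H2bc23, H1f1, H3c15 and H1f2. H2bc4 rose 1.61-fold (log2 0.69, SE 0.0871, edgeR adjusted p = 4.21e-09) and H3c14 1.91-fold (log2 0.93, SE 0.238, edgeR adjusted p = 7.50e-04). H4c9 rose 1.42-fold (log2 0.51, SE 0.122, edgeR adjusted p = 4.00e-04), while H1f2 had log2 0.18 (SE 0.0801, edgeR adjusted p = 0.0448), and its call was lost in 6 of 15 alternative fits. The calls of H2bc23, H3c15 and H1f1 were lost in 7 of 15, 5 of 14 and 2 of 14 such fits, and in H3c15 the groups overlapped. Of the 21 calls in this comparison, 15 were kept in each alternative fit. H2ac25 did not pass (log2 -0.10, SE 0.135). H1f1, which is much rarer than H1f2, was at 0.201, 0.455 and 0.691 CPM with Cas9 and at 0.902, 0.810 and 0.828 CPM with Tnrc6a (log2 0.97, SE 0.387, edgeR adjusted p = 0.0269). It had also passed in control cells (log2 0.92, SE 0.366, edgeR adjusted p = 0.0273), where the call was lost in 3 of 14 alternative fits.

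H2A was further compared with its variant H2ax, because 16 of the 17 H2A genes share 50-base windows with H2ax, over 3.37% to 27.1% of their length. H2ax was far more abundant and fell with Tnrc6a in both genotypes. It was at 248.0 ± 4.84 CPM in Cas9 control, 334.5 ± 8.89 in Cas9 Trim71-/-, 133.3 ± 1.60 in Tnrc6a control and 156.0 ± 6.29 in Tnrc6a Trim71-/- libraries (SD, n = 3). Its log2 fold changes were 0.43 and 0.23 for Trim71-/- and -0.90 and -1.10 for Tnrc6a. Of the 16 H2A genes that share windows with it, 10 and 14 fell with Tnrc6a and none rose. H2ac25, which shares none, rose in control cells, but its call was lost in 5 of 15 alternative fits. Trim17, whose exons overlap those of H2ac25, rose there too (log2 0.64). In Trim71-/- cells H2ac25 did not pass (log2 -0.10). Summed over the 46 genes without such windows, the ratios were 1.64 and 1.38 for Trim71-/- and 1.47 and 1.23 for Tnrc6a. Summed over the 16, they were 1.20 and 0.958 (overlapping), and 0.671 and 0.537. The 16 are all H2A genes, and the 46 are the other classes with H2ac25, so histone class and shared windows cannot be told apart. The part that reads from H2ax could have in the H2A counts was not tested. Short genes in general were also lower with Tnrc6a: of the 3627 other genes of at most 1000 bases, 44.6% were lower and 9.21% higher in control cells, with a median of log2 -0.35.

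The start of the coding sequence shows how near these copies stand to each other and to H2ax. The first 90 coding bases are given from GENCODE M21 on GRCm38, for the H2A gene that fell most in both Tnrc6a comparisons (H2ac13), 3 others that fell in at least 1 of them, H2ac25 and H2ax. Capitals mark bases that differ from H2ac13.
H2ac13, chr13:21716422-21716511 (+): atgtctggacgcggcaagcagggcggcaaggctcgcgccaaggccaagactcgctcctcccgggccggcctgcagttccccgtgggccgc
H2ac22, chr13:21787129-21787218 (-): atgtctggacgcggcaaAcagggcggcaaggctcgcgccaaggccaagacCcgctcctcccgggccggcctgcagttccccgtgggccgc
H2ac8, chr13:23571019-23571108 (-): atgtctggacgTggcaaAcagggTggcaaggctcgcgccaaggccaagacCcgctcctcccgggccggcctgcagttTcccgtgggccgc
H2ac19, chr3:96240161-96240250 (-): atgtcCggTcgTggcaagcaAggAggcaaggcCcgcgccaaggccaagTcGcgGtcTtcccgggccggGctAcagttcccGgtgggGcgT
H2ac25, chr11:58954738-58954827 (+): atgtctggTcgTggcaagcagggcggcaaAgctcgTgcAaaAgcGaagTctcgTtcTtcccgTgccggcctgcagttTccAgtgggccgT
H2ax, chr9:44334762-44334851 (+): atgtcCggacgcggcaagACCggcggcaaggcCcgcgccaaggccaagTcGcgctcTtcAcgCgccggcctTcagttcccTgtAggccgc
H2ac22 differs from H2ac13 at 2 of the 90 bases and H2ac8 at 5. H2ac25 differs at 14, H2ac19 at 15 and H2ax at 13.

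H2A and H2B genes stand head to head in the chromosome 13 cluster. Pairs on opposite strands with starts at most 500 bases apart numbered 12, and their starts were 176 to 302 bases apart. This grouping was made after the values had been seen and carries no test. In both Tnrc6a comparisons the H2A gene's log2 fold change was below 0 and the H2B gene's above 0 in all 12 pairs. Over the whole classes, 16 of 17 H2A genes were below 0 and 17 of 17 H2B genes above 0 in control cells. In Trim71-/- cells these were 17 of 17 and 15 of 17, so the pairs mostly repeat the class difference. The paired H2A genes also share windows with each other and with H2ax, so the pairs are not separate observations. The medians were -0.70 for H2A and 0.70 for H2B in control cells, and -0.98 and 0.40 in Trim71-/- cells. For Trim71-/- with Cas9, no H2A gene of the pairs was below 0 and the medians were 0.23 and 0.49. For Trim71-/- with Tnrc6a, 8 H2A genes were below 0 and 7 H2B genes above it, with medians of -0.09 and 0.10. In the pair of H2ac6 and H2bc4, H2ac6 had log2 -0.44 in control cells, which did not pass, while H2bc4 rose. In the pair of H2ac22 and H2bc22, H2ac22 fell by 0.83 on the log2 scale and H2bc22 rose by log2 1.11 in control cells. In Trim71-/- cells H2ac22 had log2 -1.05, while H2bc22 had log2 0.05 and did not pass.

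**Figure D4:**
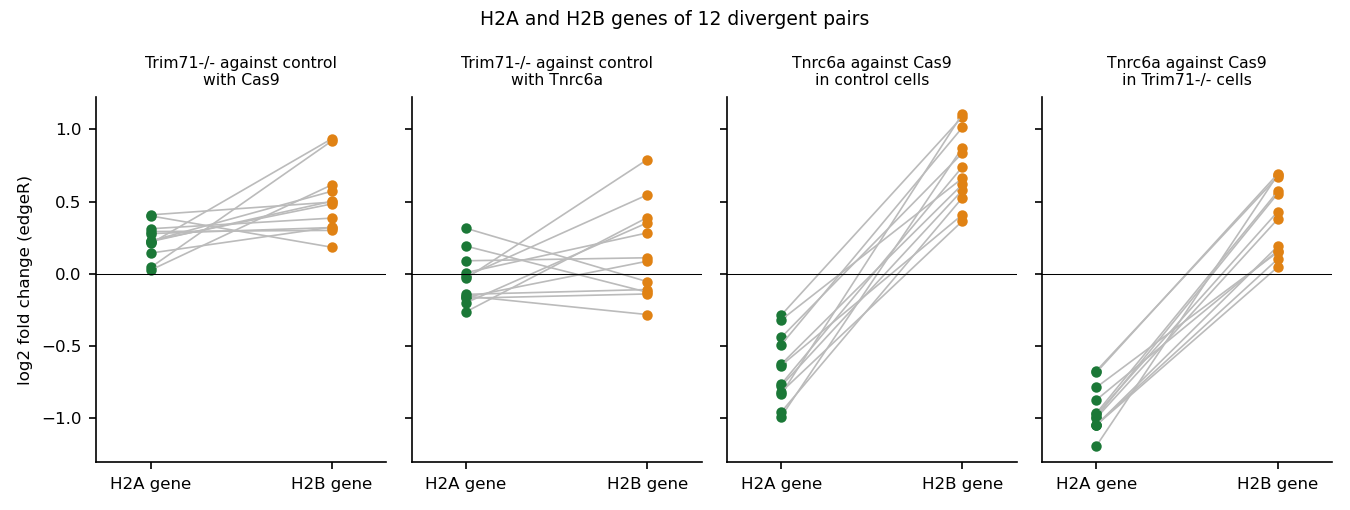
Log2 fold changes (edgeR) of the H2A and the H2B gene of 12 divergent pairs on chromosome 13 in the 4 comparisons; each line joins 1 pair. In both Tnrc6a comparisons all 12 lines climb from an H2A value below 0 to an H2B value above 0, the sides on which nearly all genes of these classes lay.

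The stretch between the starts of 2 such pairs is shown. In each, 1 stretch of DNA lies between an H2A gene below 0 and an H2B gene above 0 on the log2 scale with Tnrc6a. The upstream stretch of H1f2, the most abundant member by CPM, is shown beside them. All are from the RefSeq promoter table for GRCm38.p6, read on the strand of the H2A or H1 gene, and capitals mark the octamer ATTTGCAT, CCAAT and TATAAA on either strand.
H2ac6 and H2bc4, chr13:23683960-23684198 (-): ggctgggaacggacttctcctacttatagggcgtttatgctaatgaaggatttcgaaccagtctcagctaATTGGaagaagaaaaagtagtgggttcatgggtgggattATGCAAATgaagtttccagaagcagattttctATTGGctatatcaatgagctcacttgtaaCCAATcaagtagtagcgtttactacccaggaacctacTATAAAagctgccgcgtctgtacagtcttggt
H2ac22 and H2bc22, chr13:21787249-21787460 (-): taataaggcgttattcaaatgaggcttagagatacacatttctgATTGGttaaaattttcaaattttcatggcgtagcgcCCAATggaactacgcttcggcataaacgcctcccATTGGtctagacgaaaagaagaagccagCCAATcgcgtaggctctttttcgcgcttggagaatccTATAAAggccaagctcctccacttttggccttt
H1f2, chr13:23738557-23738806 (+): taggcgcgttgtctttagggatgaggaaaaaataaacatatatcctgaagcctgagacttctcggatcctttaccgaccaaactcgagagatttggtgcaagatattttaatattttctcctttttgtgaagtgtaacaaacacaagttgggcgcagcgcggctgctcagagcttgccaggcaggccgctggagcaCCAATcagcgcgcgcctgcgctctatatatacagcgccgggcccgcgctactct
The stretch between H2ac6 and H2bc4 holds 1 octamer and 3 CCAAT motifs, and that between H2ac22 and H2bc22 holds 4 CCAAT motifs. Over windows of 300 bases (250 before the start and 50 after it), 53 members had a promoter in the table. Counted per gene, CCAAT stood in 45 of the 53 (84.9%), against 41.1% of all 27025 genes with a promoter, and in 3 of 11 H4 genes. TATAAA stood in 31 of the 53 (58.5%), against 15.7% of all genes with a promoter. The octamer, which the factor Pou2f1 binds in H2B promoters, stood in 6 of 13 H2B and 4 of 14 H2A genes and in no H1, H3 or H4 gene. Of all genes with a promoter, 1.97% held it. Promoters of a divergent pair overlap, so their matches are partly the same bases.

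Genes between the histone copies had medians near 0. The 16 other genes tested between the first and the last histone gene on chromosome 13 had median log2 fold changes of -0.02 and 0.00 for Trim71-/- and -0.11 and 0.12 for Tnrc6a.

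Replication-independent variants were far above the replication-dependent genes per length. On RPKM, H3f3a and H3f3b together were at 243 ± 2.35 in Cas9 control, where the 11 H3 genes summed to 10.6 ± 1.16 (SD, n = 3). The ratio of these was 22.9 in Cas9 control, 22.6 in Cas9 Trim71-/-, 19.6 in Tnrc6a control and 21.3 in Tnrc6a Trim71-/- libraries. H1f0, the linker variant of cells that leave the cycle, was at 68.3 ± 1.12 RPKM against 7.45 ± 0.240 for the 6 H1 genes in Cas9 control, a ratio of 9.17. That ratio was 6.57, 5.73 and 4.56 in the other groups, in the order above. H2ax was listed with these variants, but how its mRNA ends was not examined. It exceeded the summed H2A genes by a ratio of 2.87, 3.13, 2.29 and 2.69. All these ratios compare RNA that can end in different ways, and a library's capture of each kind was not measured. Of 11 variants tested, 7 rose and 2 fell in Cas9 Trim71-/- cells, and 4 rose and 2 fell for Trim71-/- with Tnrc6a. With Tnrc6a against Cas9, 8 fell and 1 rose in control cells, and 9 fell in Trim71-/- cells (edgeR, adjusted p under 0.05). The shares of all genes called in these comparisons were 36.1%, 39.1%, 63.5% and 62.9%. The variant that rose was H3f3b (log2 0.15, SE 0.0339, edgeR adjusted p = 1.79e-04). H1f0 rose in both Trim71-/- comparisons (log2 0.40 and 0.24) and fell in both Tnrc6a comparisons (log2 -0.16 and -0.33), where H1f2 rose.

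**Figure D5:**
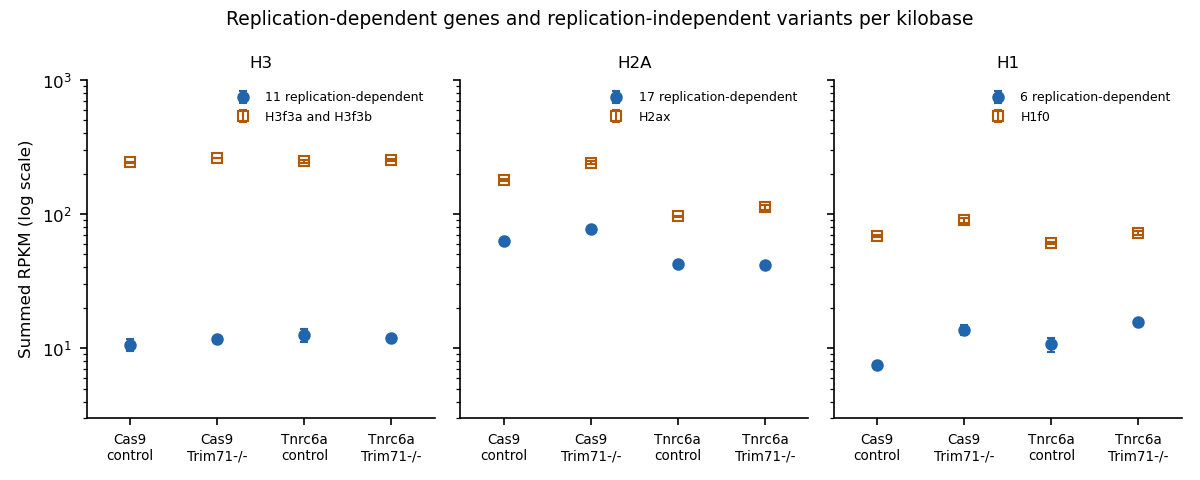
Summed RPKM of replication-dependent genes and of variants listed here as replication-independent on a log axis, for H3, H2A and H1; points are group means and bars SD (n = 3), hidden where smaller than the point. The variants lie above the replication-dependent genes in every group.

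Genes of the machinery that makes histone mRNA moved in both directions. Of 15 genes for transcription and 3′ processing, 4 rose and 3 fell in Cas9 Trim71-/- cells and 3 rose and 7 fell for Trim71-/- with Tnrc6a. With Tnrc6a against Cas9, 8 rose and 7 fell in control cells and 5 rose and 5 fell in Trim71-/- cells. Of all genes, 36.1%, 39.1%, 63.5% and 62.9% were called in these 4 comparisons. Npat, the coactivator of histone genes, was at 85.7 ± 4.15 CPM in Cas9 control and 98.9 ± 11.7 in Cas9 Trim71-/- libraries, which did not pass. It was at 128.9 ± 11.6 in Tnrc6a control and 137.1 ± 3.76 in Tnrc6a Trim71-/- libraries (SD, n = 3), a rise of log2 0.59 (SE 0.0831, edgeR adjusted p = 4.48e-05) and 0.47 (SE 0.0821, edgeR adjusted p = 2.94e-04). Hinfp, which binds H4 promoters, rose with Tnrc6a by log2 0.46 and 0.34. Slbp, the stem-loop binding protein, was at 114.3 ± 0.726, 127.3 ± 1.99, 135.2 ± 3.88 and 138.9 ± 2.83 CPM in the 4 groups. Its changes of log2 0.16 for Trim71-/- with Cas9 and of 0.24 and 0.13 with Tnrc6a passed, and that of 0.04 for Trim71-/- with Tnrc6a did not.

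Of 12 genes for histone mRNA decay, 4 rose and 2 fell in Cas9 Trim71-/- cells, and 6 rose and 1 fell for Trim71-/- with Tnrc6a. Upf1, the helicase of this pathway, was at 173.4 ± 9.90 CPM in Cas9 control and 241.8 ± 7.58 in Cas9 Trim71-/- libraries (log2 0.48, SE 0.0404, edgeR adjusted p = 2.54e-13). Eri1, the exonuclease, rose by log2 0.60, and Lsm1 and Lsm4, of the ring that binds the 3′ end, by log2 0.52 and 0.85. All of these 4 lie on chromosome 8. There, 547 of 664 genes with a mean of at least 5 CPM were higher in Cas9 Trim71-/- cells, with a median of log2 0.49. For Trim71-/- with Tnrc6a, 558 of the 664 were higher, with a median of log2 0.52. The higher level of chromosome 8 genes went with Trim71-/- in both backgrounds. In any difference between Trim71-/- and control cells, it cannot be told apart from the knockout. No histone gene of the set lies on that chromosome. With Tnrc6a against Cas9, 4 of the 12 rose and 6 fell in control cells, and 4 rose and 5 fell in Trim71-/- cells. Beside these counts, 36.1%, 39.1%, 63.5% and 62.9% of all genes were called.

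Genes of the cell cycle were counted beside the shares of all genes. For Trim71-/-, 17.1% of all genes were higher and 19.1% lower with Cas9, and 20.0% and 19.0% with Tnrc6a. With Tnrc6a against Cas9, 30.4% were higher and 33.1% lower in control cells, and 32.0% and 30.9% in Trim71-/- cells. Of 25 genes of S phase and DNA replication, 9 rose and 3 fell in Cas9 Trim71-/- cells, and 9 rose and 5 fell for Trim71-/- with Tnrc6a. Mcm5, Cdt1 and Gins2 of these are on chromosome 8. With Tnrc6a against Cas9, 19 fell and 3 rose in control cells, and 20 fell and 3 rose in Trim71-/- cells. Ccne1, the cyclin that activates NPAT with Cdk2, fell by 0.93 on the log2 scale in Cas9 Trim71-/- cells (SE 0.0425, edgeR adjusted p = 6.57e-22). Of 14 genes of G2 and M phase, 5 fell and 1 rose in Cas9 Trim71-/- cells, and of 10 regulators of G1, 5 rose and 1 fell. In the other comparisons, in the order above, 8, 8 and 11 G2 and M genes fell and 0, 4 and 2 rose, while 3, 4 and 4 G1 regulators fell and 5, 3 and 3 rose. Of 15 histone chaperones, 3, 3, 5 and 3 rose and 5, 4, 9 and 9 fell. Rbl2 of the G1 regulators and Asf1b of the chaperones also lie on chromosome 8. The members and these lists were not tested against each other.

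Markers of cell types moved with the groups too. The 7 embryonic stem cell markers, among them Pou5f1 and Nanog, summed to between 5093 and 5109 CPM in Cas9 control, 6232 and 6314 in Cas9 Trim71-/-, 3038 and 3058 in Tnrc6a control and 4696 and 4789 in Tnrc6a Trim71-/- libraries. Zfp42, another of these 7, lies on chromosome 8. The 6 primitive endoderm markers, among them Gata6 and Sox17, summed to 77.7 to 84.8, 9.87 to 11.7, 182.6 to 189.0 and 23.0 to 26.6 CPM, and all 6 fell in both Trim71-/- comparisons. The 7 markers of 2-cell-like cells, among them Zscan4c, summed to 19.1 to 21.6, 1.38 to 1.98, 459.3 to 474.6 and 167.1 to 177.8 CPM, and all 7 fell in both Trim71-/- comparisons and rose in both Tnrc6a comparisons. Of 7 fibroblast markers 3 were tested, and they summed to between 7.44 and 17.4 CPM in all libraries. The part of these cell types in the histone levels was not tested.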

How the data were processed

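Raw counts and RPKM per gene were deposited by the authors for 12 libraries (4 groups of 3). Per the submitters' processing notes, reads were handled with bcl2fastq 2.20 and STAR 2.7.3a on GRCm38 (mm10). What program counted the reads, with which annotation and strand setting, is not given in the sources used here. From the deposited counts, edgeR 4.0.16 (TMM factors, filterByExpr, robust quasi-likelihood test, R 4.3.3) was fitted over all 12 libraries with 1 mean per group, and p-values were adjusted over all 20486 genes with a threshold of 0.05. CPM uses TMM-scaled totals. Sums over members carry SDs and no test. DESeq2 1.42.0, limma-voom and other filters, scalings, member sets and left-out libraries were tried. The scripts were tested on simulated data. Replicate numbers did not pair the samples (correlations of deviations from the group means -0.0145 to 0.0215). Named genes were the 3 members of each class with the highest RPKM, the 5 largest called rises and falls of at least 1 CPM per comparison, all members outside chromosome 13, and leading genes of the lists; other members were named after their values were seen. The members and lists were chosen with earlier results of these data known. Transcripts were matched by Ensembl identifier to GENCODE M21 (all 62) and promoters by symbol to RefSeq (53). Precision is limited by counts per gene, and SDs cover wells only.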

Additional observations from a re-analysis of the deposited data

Results flagged for a closer look

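The effect of the Trim71 knockout on H2bc27 differed between the Cas9 and the Tnrc6a background, with an interaction of log2 -1.35 (edgeR adjusted p = 0.0212). The mean level went from 0.673 ± 0.108 to 1.88 ± 0.163 CPM with Cas9 and from 1.20 ± 0.288 to 1.29 ± 0.333 CPM with Tnrc6a (SD, n = 3). It was counted 11 to 57 times per library, and the call was lost without any of the 3 libraries named beside it above.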

How the results depend on the processing

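No called result changed direction under the alternatives run, and the summed ratio for Tnrc6a in Trim71-/- cells, which was 1.01 with overlapping groups, fell below 1 on RPKM. Requiring a change of at least 2-fold left 5, 1, 5 and 5 members called in the 4 comparisons, in the order Trim71-/- with Cas9, Trim71-/- with Tnrc6a, Tnrc6a in control and Tnrc6a in Trim71-/- cells. For Tnrc6a in control cells the 26 calls became 17 under a filter of 1 CPM in 6 libraries, 17 with DESeq2 and 16 without the members that share windows with H2ax. That last set, chosen after seeing the data, left 7 calls in Trim71-/- cells. Leaving out 1 library at a time gave 7 to 8, 5 to 8, 15 to 21 and 17 to 22 calls, and 0 to 2 for the interaction. The count for Tnrc6a in control cells fell to 16 without Cas9 control replicate 3, 17 without Tnrc6a control replicate 1 and 15 without Tnrc6a control replicate 2. For the interaction it was 0 without the libraries named in the report and 2 without Tnrc6a control replicate 3.

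The summed level gave ratios of 1.345, 1.155, 1.04 and 0.8932 on RPKM. It gave 1.683, 1.421, 1.386 and 1.17 over members that share under 50% of their windows with another, and 1.644, 1.382, 1.466 and 1.232 without the members that share windows with H2ax. With library totals alone the Tnrc6a ratios were 1.296 and 1.122. Leaving out 1 library moved the ratios over 1.423 to 1.499, 1.24 to 1.312, 1.13 to 1.195 and 0.9905 to 1.041. The causes were not tested beyond what each set removes. With the replicate number as a block, 9, 7, 24, 20 and 1 members were called, against 9, 7, 26, 21 and 1. Of the values of single members, 2189 kept their direction and side of the threshold, 337 lost the call and 154 gained it. Depth limits most members, which hold few counts per library.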
